A study of Rattus norvegicus with 8 samples.

Results

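Testin is a protein secreted by Sertoli cells, and its transcript is 1 of the genes on the Affymetrix rat arrays on which whole testis RNA of adult Sprague-Dawley rats was measured. It was read by every probe set whose single gene symbol was Testin, which was 1 of 31042 non-control probe sets (1370457_at, gene ID 286916, 1 of 14217 genes with such a probe set), and 0 further probe sets listed Testin among several symbols. The 8 arrays were 3 of untreated testes, 2 of testes taken 8 h and 3 of testes taken 4 d after 1 oral dose of 50 mg/kg body weight of Adjudin, a compound known to loosen the attachment of developing germ cells to Sertoli cells. The labels name no vehicle group, give no exact age, and do not say that each array came from a separate rat, so any p-value given here covers array-to-array spread alone, and that spread may be technical. The gene was chosen on its signal change at 4 d against untreated testes on these same arrays, so its levels are given as a description without a test.

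Testin belongs to the papain-like family that also holds the cathepsins, and is known as a family member without protease activity. In the rat testis it was first known as a product of cultured Sertoli cells that collects near the junctions between Sertoli cells and germ cells. Its transcript is known to be scarce in the intact adult testis and to become abundant when germ cells are lost or their junctions are disturbed. The arrays measured RNA in whole testis and no junction, so the use of Testin as a marker of junction loss was not tested here.

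The promoter window of Testin is shown because the transcript had the third largest log2 difference of all genes tested at 4 d against untreated testes, and the letters next to its start can be compared with those of genes that moved with it. RefSeq places it at chr17:3852259-3852558 of GRCr8, on the plus strand, with 250 bases before and 50 after the start. Capitals mark a match to the NF-kappaB consensus.
Testin promoter: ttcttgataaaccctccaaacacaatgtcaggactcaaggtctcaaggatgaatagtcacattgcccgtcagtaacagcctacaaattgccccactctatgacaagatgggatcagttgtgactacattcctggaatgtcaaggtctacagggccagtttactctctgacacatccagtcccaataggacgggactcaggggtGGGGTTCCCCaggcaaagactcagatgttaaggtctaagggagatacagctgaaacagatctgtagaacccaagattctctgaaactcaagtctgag
The match, GGGGTTCCCC, spans bases 204 to 213 of the window, and both strands met the consensus there. The consensus occurred on either strand in 7.51% of 33469 rat promoter windows of 300 bases. E-boxes (CANNTG) occurred at bases 114, 225 and 250, none of them overlapping that match, and 72.1% of windows held at least 1. The window held 0 matches to the AP-1 site TGANTCA (7.33% of windows), the NR5A site AAGGTCA (4.61%), the SOX site AACAAT (11.7%), the GATA site AGATAA (11.6%), the cyclic AMP site TGACGTCA (1.83%), the TCF/LEF site ATCAAAG (3.63%), the TATA box TATAAA (14.2%) and the CArG box (1.64%), searched on both strands. With 47% G and C and 2 CG dinucleotides it was a window of few CG pairs, against medians of 51.7% and 7 over all windows. A match in these letters is a description and shows no binding.

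Testin signal was low in untreated testes, higher on both 8 h arrays and high on all 4 d arrays. Each array was scaled so that its trimmed mean, taken without the highest and lowest 2% of values, was 500, and a scaled signal of 100 was used as the minimum for a measured gene. Untreated arrays read 107, 65.8 and 67.2, so 1 of the 3 reached 100. The 8 h arrays read 149.7 and 179, and the 4 d arrays 3421, 4076 and 4581. The 3 groups did not overlap, and 6 of the 8 arrays reached 100. The group means were 80.1 ± 23.6 in untreated testes (SD, n = 3), 165 ± 20.9 at 8 h (SD, n = 2) and 4026 ± 582 at 4 d (SD, n = 3).

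**Figure D1:**
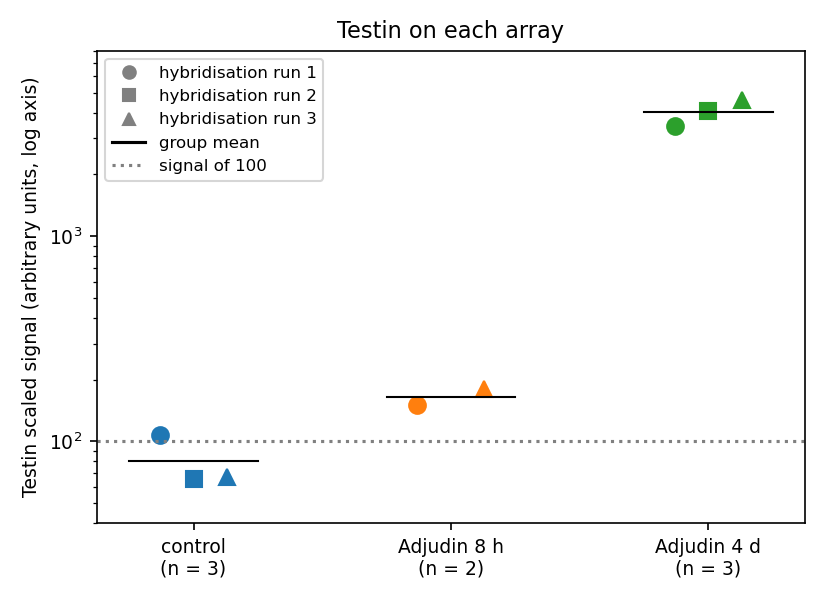
Scaled Testin signal (log axis, arbitrary units) of each array by group, with marker shapes for the hybridisation runs, a bar at each group mean and a dotted line at 100. The 4 d arrays lie between 3421 and 4581, the 8 h arrays at 149.7 and 179, and 2 of the 3 untreated arrays lie below 100.

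The ratio of the mean signal at 4 d to that of untreated testes was 50.3. Since 2 of the 3 untreated arrays lay below 100, the size of this fold rests on dim values, and it was 39.3 with those arrays set to 100, a choice made after seeing the data. The lowest 4 d array was 31.9 times the highest untreated array. On the log2(signal + 32) scale, on which fold changes of dim genes are understated, the difference of 4 d minus untreated was 5.19, or 36.5-fold. Of 11240 other genes tested, 2 had a larger difference in either direction in the same comparison, Wnt4 and Hpx. Between 4 d and 8 h Testin differed by 4.36 on that scale (20.6-fold, 24.5-fold as a ratio of mean signals), and 1 other gene had a larger difference. Nearly all of the difference lay between the 2 time points sampled after dosing, with no array in between.

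The 8 h step was small beside that. Mean signal at 8 h was 2.05 times that of untreated testes, or 1.61 times with untreated arrays below 100 set to 100. The difference was 0.83 on the log2 scale. Of the 11240 other genes, 207 had a larger difference in either direction and 122 a larger positive one. The lowest 8 h array stood 1.39 times above the highest untreated array, a smaller gap than the 1.63-fold range within the untreated arrays themselves. By contrast the lowest 4 d array was 19.1 times the highest 8 h array, while 4 d arrays ranged over 1.34-fold. Untreated and 8 h testes are neighbours in the order of levels that lie apart by less than the untreated range, and 4 d testes stand far from both. At 8 h Testin had covered 15.9% of its 4 d change on the log2 scale, or 2.14% of it as signal. Among the 469 other genes at least 2-fold higher at 4 d the median of that log2 share was 15.8%, with quartiles of 0.908% and 38.8%, and 235 of them lay below Testin. Both comparisons with untreated testes use the same 3 control arrays.

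The settings files put the arrays in 3 hybridisation runs, and Testin moved the same way in each. In run 1 the untreated array read 107, the 8 h array 149.7 and the 4 d array 3421, which gave log2 differences of 4.63 for 4 d and 0.38 for 8 h against untreated. In run 2, which had no 8 h array, the 4 d array read 4076 and the untreated array 65.8, a difference of 5.39. In run 3 the untreated array read 67.2, the 8 h array 179 and the 4 d array 4581, with 4 d and 8 h differences of 5.54 and 1.09. Run 1 held the brightest untreated array and the dimmest 4 d and 8 h arrays, so its differences were the smallest. Run 2 used another version of the fluidics protocol (4 in place of 5), and its settings files name the sample type mouse where the labels name rat. Without run 2 the 4 d difference was 5.09, without run 1 it was 5.47 and without run 3 it was 5.01. The 2% trimmed means of the deposited values lay near 250 on every array, 51.6% to 59.0% of non-control probe sets reached 100, and arrays of 1 group correlated across probe sets at r of 0.954 to 0.978.

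Few genes followed the pattern of Testin in size. Likeness was the root mean square, over the 8 arrays, of the distance between the log2 profiles of the gene and of Testin, each relative to its own mean in untreated testes, for 11240 genes. Wnt4, a secreted signalling protein, was nearest at 0.37, and Hpx, the haem-binding protein hemopexin, was next at 0.52. Timp1, an inhibitor of matrix metalloproteases, followed at 0.89, Serpina3n, a serine protease inhibitor, at 0.97 and Gpnmb, a transmembrane glycoprotein, at 1.18. Vgf, a neuropeptide precursor, lay at 1.26, and Hsd11b2, which inactivates glucocorticoids, and Trim2, a ubiquitin ligase, both at 1.47. Wnt4 and Hpx had larger 4 d differences than Testin, and the other 6 had smaller ones. All 8 had been placed there by their change at 4 d, so their own differences are a description.

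The genes nearest in size are given here with their 8 h values, and no difference from Testin at 8 h was tested. Wnt4 read 5.0, 11.8 and 9.0 in untreated testes, 27.6 and 75.2 at 8 h, and 1802, 2041 and 1870.5 at 4 d, so that the size of its change rests on the added 32. Hpx read 123.8, 96.4 and 179 in untreated testes, 387 and 609.7 at 8 h, and 5363, 5345 and 8124 at 4 d, with no overlap between groups. It had covered 32% of its 4 d change at 8 h on the log2 scale, against 17.6% for Wnt4 and 15.9% for Testin. The share was 29.8% for Vgf, near that of Hpx, 17.5% for Timp1, 12.9% for Gpnmb and 7.58% for Serpina3n. It was -4.14% for Hsd11b2 and -10.5% for Trim2.

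Genes most like Testin in shape were found after dividing each profile by its own 4 d change, among the 469 genes at least 2-fold higher at 4 d. They were Gpnmb, Tm4sf1, a membrane protein, Wnt4, Gask1b, Tnip1, an inhibitor of NF-kappaB signalling, Tagln2, an actin-binding protein, Gstp1, a glutathione transferase, and Man1a1, a mannosidase of glycoprotein processing. Their distances ran from 0.043 to 0.073 of the 4 d change, and their log2 changes at 4 d from 1.27 for Man1a1 to 5.58 for Wnt4. Gpnmb and Wnt4 were in both groups. The shape group was less stable to processing, since 4 of the 8 remained with quantile normalization and 5 with the largest pseudocount tried, against 8 and 6 for the size group. Of the 14 genes of both groups 13 had a promoter window. The NF-kappaB consensus found in the Testin promoter lay in 3 of these, those of Gask1b, Tnip1 and Tagln2, against 7.51% of all windows. The AP-1 site, absent from the Testin window, also lay in 3 (7.33% of all windows). The NR5A site and the CArG box lay in 2 each (4.61% and 1.64%), E-boxes in 10 (72.1%), and each other site in 0 or 1. The 13 genes were picked from these same arrays, and enrichment was not tested.

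**Figure D2:**
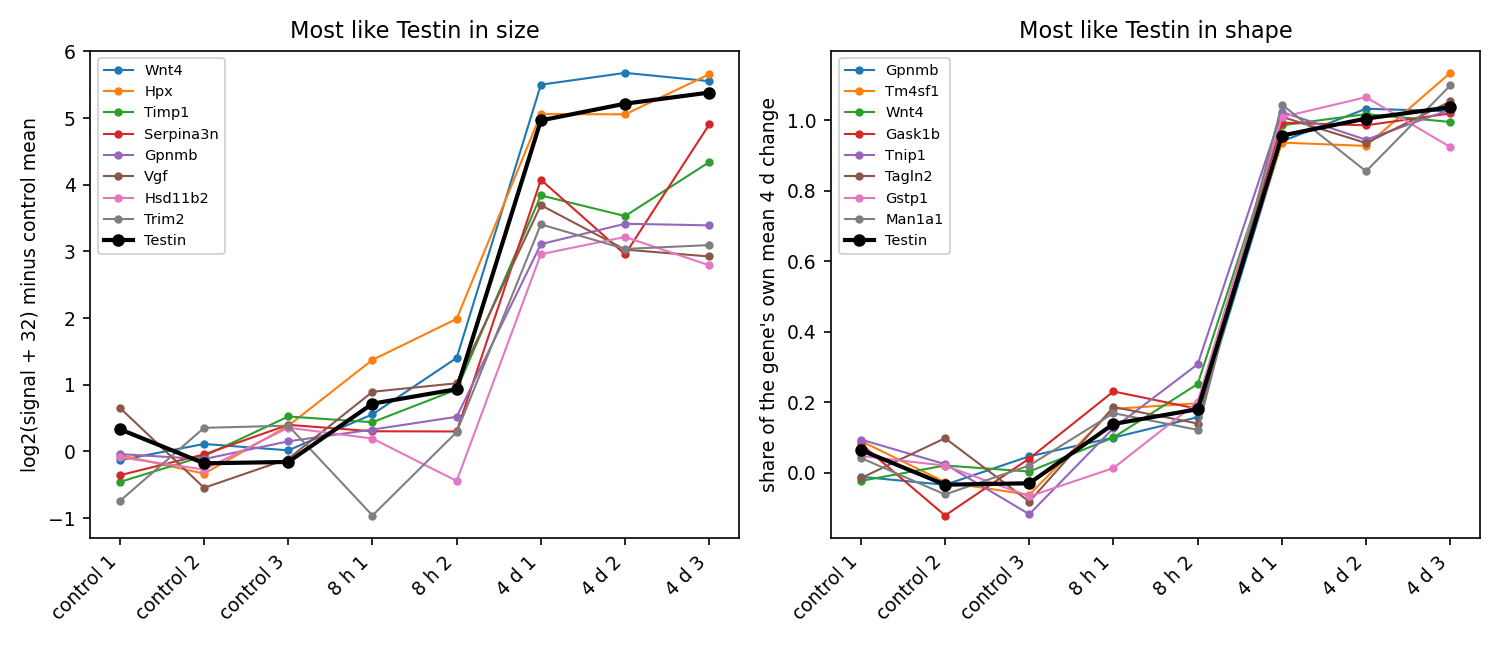
Profiles over the 8 arrays of Testin (black) and of the 8 genes most like it in size (left, log2(signal + 32) minus the mean of the untreated arrays) and in shape (right, as a share of the gene's own mean 4 d change). Wnt4 and Hpx run beside Testin at 4 d on the left, and Hpx and Vgf lie above it on both 8 h arrays.

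Some relatives of Testin by family rose at 4 d, with smaller log2 differences than that of Testin. Of 19 papain-like genes listed, 16 had a probe set and 9 reached the minimum signal. At 4 d against untreated testes 6 of these rose, with 0 falls, in limma with Benjamini-Hochberg adjustment over all 19785 probe sets tested. Of those probe sets 6.16% were called higher and 3.73% lower. Counted with 1 probe set a gene, as the lists are, 858 of 11241 genes rose and 583 fell. The median log2 difference of the 9 was 1.06, against 0.031 over all genes and 5.19 for Testin. Ctsl, the lysosomal cathepsin L, which Sertoli cells also secrete, read 13305, 14523 and 18780.1 at 4 d and 3878, 3819.9 and 4811 in untreated testes. That was the largest difference of the family after Testin (log2 1.88, SE 0.18, adjusted p = 0.000327 in limma). Ctso (1.65), Ctsb (1.54), Ctsc (1.07), Ctsk (1.06) and Ctss (0.87) rose as well, while Ctsf, Ctsh and Ctsz read 0.42, 0.44 and 0.59 and did not pass. A block for the run gave 7 rises, with Ctsh (adjusted p = 0.0104 in limma) added. That block raised the calls over the whole array too, to 2632 probe sets higher and 1819 lower, from 1218 and 738. At 8 h, where 0.0657% of probe sets tested were called, all of them higher (0% lower), 0 of the 9 passed and 1 had an unadjusted p below 0.05. A dimmer probe set of Ctsl did rise at 8 h (log2 1.21, adjusted p = 0.0112 in limma), while the brighter one read 0.56. With the hybridisation run as a block the brighter one passed too (0.51, adjusted p = 0.0335 in limma).

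Few genes around Testin on chromosome 17 could be measured. In the RefSeq order, 24 protein-coding genes were taken, 12 on each side, of which 10 had a probe set and 4 were tested. The relatives Ctsq, Ctsj, Ctsr and Ctsql2, known as placental cathepsins in rodents, stayed between 0.600 and 75.2 on every array, below the minimum. Ctla2a, which lies next to Testin and resembles the inhibitory propeptide of cathepsins, read 60.8, 82.8 and 104 in untreated testes, 77.2 and 76.0 at 8 h and 153, 149.2 and 183 at 4 d. Its 4 d arrays lay above its untreated arrays, but the difference did not pass (log2 0.77, SE 0.24, adjusted p = 0.0753 in limma) unless the run was blocked (adjusted p = 0.0286 in limma). Of the other neighbours tested, Dapk1 (0.11) and Tut7 (0.022) did not pass, and Isca1, of iron-sulphur cluster assembly, fell (-0.68, adjusted p = 0.0318 in limma).

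Genes of the cystatin family, which holds inhibitors of papain-like proteases, moved in both directions, and whether each member is such an inhibitor was not tested. Of 11 listed 4 were tested. Cst12 (log2 0.97), of the male reproductive tract, and Cstb (0.55) rose, Cst8 fell (-0.81), and Cst3 read 0.38 and did not pass. Cst3 did pass once the run was blocked (adjusted p = 0.00622 in limma). At 8 h 0 of the 4 passed in limma and 0 had an unadjusted p below 0.05.

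Other products that Sertoli cells secrete rose in part, none as far as Testin. Of 29 listed, 24 were tested and 11 rose at 4 d, with 0 falls, and the median log2 difference of those tested was 0.60. Over all 11241 genes 858 rose and 583 fell. This list shares Ctsl, Cst12 and Cst3 with the papain-like and cystatin lists, and the rises of Ctsl and Cst12 are counted in both places. Timp1 read 13304, 10729 and 18825 at 4 d and 646, 856 and 1308 in untreated testes (log2 3.90, SE 0.27, adjusted p = 8.08e-05 in limma), the nearest to Testin of the list. A2m, a broad protease inhibitor (1.62), and Plat, tissue plasminogen activator (1.47), rose as well. Testin stood 1.28 log2 units above the highest of them, with every other member further below. A block for the run gave 16 rises and 2 falls, where 2632 and 1819 of all 19785 probe sets rose and fell. At 8 h Il1a, an interleukin, rose (2.76, adjusted p = 0.00245 in limma), with 167, 159 and 96.0 in untreated testes, 1115 and 1109.7 at 8 h and 241 to 279.9 at 4 d. Its highest arrays were those at 8 h, while those of Testin were at 4 d. At 8 h 4 of the 24 had an unadjusted p below 0.05, all higher. Plat passed at 8 h once the run was blocked (log2 1.31, adjusted p = 0.0144 in limma). Without either 8 h array 0 of the 24 passed at 8 h.

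Genes that identify Sertoli cells differed by far less than Testin. Of 20 listed, 16 had a probe set with 1 symbol and 15 were tested. At 4 d 4 rose and 1 fell, and the list median was 0.24. Gstm7, a glutathione transferase, read log2 1.23, Vim, vimentin, 1.02, Tsx 0.93 and Cldn11, a barrier claudin, 0.76, and Rhox5, a homeobox gene, fell by 1.501 on the log2 scale. Wt1, a defining transcription factor, read 1203, 958 and 1049.6 at 4 d and 1003, 984 and 723 in untreated testes, overlapping groups. The summed signal of the 15 was 33147 to 38816 in untreated testes, 34084 to 38854 at 8 h and 51211 to 64323 at 4 d. This sum rests in large part on the brightest genes, Aard, Cldn11, Fabp3, Tsx, Gstm7 and Vim, with untreated means of 3285 to 9232. The transcription factors Wt1 (0.24), Gata4 (0.30), Nr5a1 (0.20), Dmrt1 (-0.046), Gata1 (-0.14) and Etv5 (-0.55) did not pass at 4 d. In whole testis RNA a change in the share of Sertoli cells and a change in RNA per cell cannot be told apart. The highest member of this list lay 3.96 log2 units below Testin. At 8 h 0 of the 15 passed and 1 had an unadjusted p below 0.05. Without untreated array 2 there were 3 calls at 4 d.

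Junction genes, the class with which Testin is associated, rose in a minority at 4 d. The rises were 24.1% of the anchoring and 23.1% of the barrier genes tested. Over all 11241 genes in the same fit 858 rose and 583 fell. Of 29 tested genes of the anchoring junctions between Sertoli and germ cells (32 listed), 7 rose and 0 fell, with a median of 0.24. Itga6, a laminin-binding integrin chain, read 251, 242 and 218 in untreated testes, 702 and 769 at 8 h and 888, 727 and 1092 at 4 d. It rose at both times (log2 1.51, adjusted p = 0.0206, at 8 h and 1.78, adjusted p = 0.000338, at 4 d, in limma), though the 8 h call was lost without the variance trend and on leaving out any array but 4 d 2 or 4 d 3. At 8 h 5 of the 29 had an unadjusted p below 0.05, all higher. Itga6 was near its 4 d level at 8 h, when Testin was not. Actn1, an actin crosslinker (1.53), Itgb1, an integrin chain (1.36), and Cttn, cortactin (0.87), also rose at 4 d. A block for the run gave 13 rises and 2 falls, where 2632 and 1819 of all 19785 probe sets rose and fell. Without 4 d 1 or without 4 d 3, 4 rose. Of 13 tested barrier junction genes (18 listed), Cldn5 (0.91), F11r (0.83) and Cldn11 rose and 0 fell, with a median of 0.34, and a block for the run gave 5 rises and 1 fall. The highest value of this list, 1.11 for Dsg2, a desmosomal cadherin, did not pass and lay 4.08 log2 units below Testin. It passed once the run was blocked (adjusted p = 0.0179 in limma). At 8 h 0 of the 13 passed and 1 had an unadjusted p below 0.05.

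**Figure D3:**
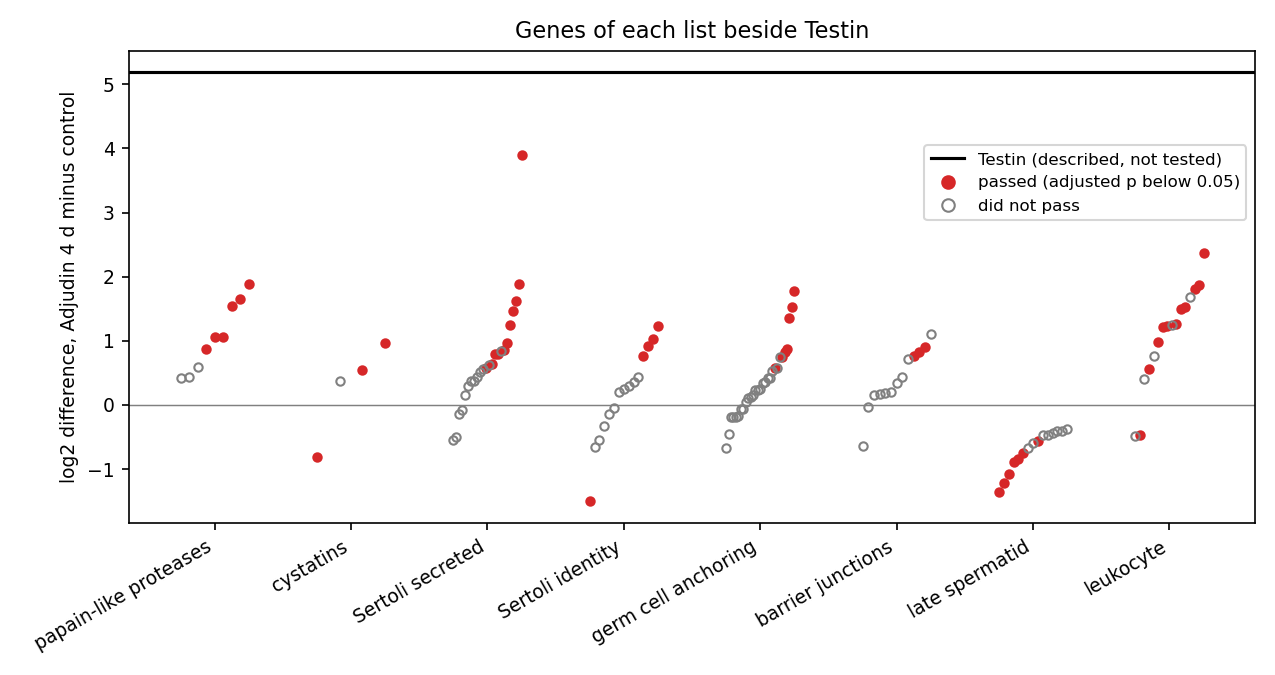
Log2 difference of 4 d minus untreated testes for the tested genes of 8 lists, filled where the adjusted p in limma was below 0.05, with a black line at the value of Testin, 5.19. Timp1 at 3.90 is the nearest point to that line, and all late spermatid genes lie below 0.

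Markers of late germ cells were lower while Testin was high. Of 15 tested late spermatid genes (20 listed) 7 fell at 4 d and 0 rose, with a median of -0.59. All 15 fell once the run was blocked, a setting in which 1819 of all 19785 probe sets fell. Fscn3, an actin bundler (log2 -1.35), Prm2, a protamine (-1.22), Cabs1 (-1.07) and Akap4, of the sperm tail (-0.88), were the largest. The summed signal of the 15 was 320056 to 477182 in untreated testes, 330357 to 427334 at 8 h and 220587 to 308020 at 4 d. The part of these shifts in the change of Testin was not tested. At 8 h 0 of the 15 passed, and 0 had an unadjusted p below 0.05. The count of falls was 3 without 4 d 1, 4 without 4 d 2 and 1 when all arrays were brought to 1 median. Of 8 spermatocyte genes 0 passed at 4 d, with 1 at an unadjusted p below 0.05, and a median of -0.083 that turned to 0.067 with quantile normalization.

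Markers of other cells moved with Testin at 4 d in part. Of 16 leukocyte genes tested (18 listed) 10 rose and 1, Aif1, fell, with a median of 1.24, and RT1-Da, an MHC class II chain (2.36), Cd74 (1.88) and Lyz2 (1.81) rose most. Their summed signal was 19852 to 22153 at 4 d and 12004 to 14171 in untreated testes. Aif1 was the brightest of these genes in untreated testes. It read 7530, 6547 and 6430 there and 4492, 4884 and 5379 at 4 d. The untreated sum thus rests in large part on Aif1, which moved against the other calls. Whether Aif1 reads leukocytes in whole testis was not tested. The count of leukocyte calls was 6 or 7 without untreated array 2 or any 1 of the 4 d arrays. Of 10 Leydig genes 3 rose (Hsd11b1 at 1.33, Scarb1 at 1.25 and Cyb5a at 0.85), with 5 calls without untreated array 3 or without 4 d 2, and a block for the run gave 6 rises and 1 fall. The defining Leydig markers Insl3 (0.71), Star (0.48) and Cyp17a1 (0.40) did not pass without that block. Lhcgr (-0.60) and Hsd17b3 (-1.14) read lower and did not pass without it either. Of 8 peritubular genes Myl9 rose (0.84), with 2 rises and 1 fall once the run was blocked. Of 7 endothelial genes 0 passed, with 2 at an unadjusted p below 0.05 and 1 rise once the run was blocked. Over all 11241 genes 858 rose and 583 fell at 4 d, so the peritubular share (12.5%) was near that of all genes and the endothelial one below it. The run block called 2632 probe sets higher and 1819 lower of 19785. The epididymal markers Adam7 and Spag11a had signals of 7.60 to 118.8 and did not reach 100 on 2 arrays, and Cst8 was the 1 gene of that list tested. Cst8 read 8136 to 8782 in untreated testes, where those markers were dim, so whether it reads epididymal tissue was not tested. Of the defining markers chosen, Sox9 and Fshr of Sertoli cells, Cdh5 of endothelial cells and Lcn5 of the epididymis had no probe set with 1 symbol. Pecam1 of endothelial cells did not reach 100 on 2 arrays, so no defining endothelial marker was tested. None of the defining markers read was listed at 0. The part of any of these cell types in the Testin signal was not tested. At 8 h none of these lists had a call (0 of each), with 3 Leydig genes and 0 leukocyte, peritubular or endothelial genes at an unadjusted p below 0.05.

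Of all 19785 probe sets tested, 1218 rose and 738 fell at 4 d against untreated testes (9.89% in either direction), and 13 were higher and 0 lower at 8 h (0.0657%), with 773 at an unadjusted p below 0.05. Between 4 d and 8 h 3.58% were higher and 2.47% lower at 4 d (6.06% in either direction). A block for the run gave 2632 rises and 1819 falls at 4 d, and 53 and 2 at 8 h. Of the calls at 4 d 62.3% were higher, and 44.6% when the medians of the tested probe sets were made equal, a setting in which Testin differed by 5.06 and the median over all genes was -0.11 in place of 0.031. Between 4 d and 8 h these shares were 59.2% and 45.2%. Without untreated array 2, 4 d 1 or 4 d 3 the count of 4 d calls was 1193, 899 and 1192, and without untreated array 1 it was 1292. Without either 8 h array the 8 h count was 0. The 154 list genes tested, each counted once, held 54 calls at 4 d and 2 at 8 h, Il1a and Itga6. Of all 11241 genes, 858 rose and 583 fell at 4 d, and 9 rose and 0 fell at 8 h.

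Tes, a LIM domain protein also called testin, is a different gene, and its levels are given so that the names are not confused. Its brightest probe set read 5264, 5286 and 8246 in untreated testes, 5151 and 7026 at 8 h and 3246, 3744 and 4311 at 4 d (log2 -0.71 at 4 d, adjusted p = 0.0566 in limma, and 0.000323 once the run was blocked). Its other probe sets read -0.50 and -0.10 at 4 d, and none of the 3 passed at either time without that block.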

How the data were processed

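The values are the MAS 5.0 signal intensity that the authors deposited for each probe set, not log-transformed, per the labels; the submitters' design text also names GeneSpring 7.2. RNA came from 0.1 g of frozen testis. Groups were read from the sample titles, since the description field reads as normal testis for all 8. The deposited intensities were rescaled to a 2% trimmed mean of 500 on each array, a factor near 2.00, before log2(signal + 32). Probe sets of at least 100 on 2 or more arrays, without 57 control probe sets, were tested (19785), with all arrays in 1 fit in limma 3.58.1 (lmFit, eBayes with a trend, no block) in R 4.3.3 and Benjamini-Hochberg adjustment at 0.05. The fit was tested on simulated data. A gene was its brightest tested probe set with 1 symbol (11241 genes). Of the non-control probe sets 20826 had 1 symbol, 436 several and 9780 none. Promoters came from RefSeq (GRCr8). The number of arrays limits the precision.

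By the settings files, untreated and 4 d arrays of 1 number shared a run. Deviations from group means correlated at 0.353 to 0.507 for same-run arrays of different groups and at -0.476 to 0.246 across runs. Deviations cancel within each small group, which pushes the values across runs down, so this contrast is partly set in advance. Named by rule were the 8 genes nearest Testin in size and in shape, up to 4 called members of each of 13 lists (otherwise the smallest p), Ctsl and Tes. Ctsk, Ctss, Ctsf, Ctsh, Ctsz, Cst3, Wt1, Dsg2, Aif1, both probe sets of Ctsl at 8 h and the chromosomal neighbours were named after their values were seen. So were Insl3, Star, Cyp17a1, Lhcgr, Hsd17b3, Gata1, Gata4, Dmrt1, Etv5, Aard and Fabp3. The members and lists were chosen with earlier results of these data known. Alternatives covered pseudocount, scaling, filter, trend, blocks, averaged probe sets and each array or run left out.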

Additional observations from a re-analysis of the deposited data

Results flagged for a closer look

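Among the 57 genes named by rule, 41 differed between 4 d and 8 h in limma, that is, their effects at the 2 times against the same untreated arrays differed. Of these 35 were higher and 6 lower at 4 d than at 8 h, where 3.58% and 2.47% of all probe sets tested were. These genes were named for a profile like that of Testin or for a call against untreated testes on the same arrays, so this count was largely set by their selection and supports nothing. The values are given as a description, and Testin itself was not tested. Genes near Testin in size had log2 differences of 4 d minus 8 h of 4.60 for Wnt4, 3.58 for Hpx, 3.68 for Serpina3n, 3.51 for Trim2, 3.22 for Timp1, 3.11 for Hsd11b2, 2.88 for Gpnmb and 2.26 for Vgf. Those near it in shape had 1.97 for Tagln2, 1.76 for Gstp1, 1.35 for Gask1b, 1.09 for Man1a1, 1.05 for Tm4sf1 and 1.03 for Tnip1. Among proteases, inhibitors and secreted products the values were 1.57 for Ctso, 1.54 for A2m, 1.32 for Ctsl, 1.30 for Ctsb, 1.12 for Ctsc, 0.79 for Cst12, -0.84 for Cst8 and -1.95 for Il1a. Sertoli and junction genes gave 1.43 for Actn1, 1.18 for Gstm7, 1.12 for Cldn5, 0.87 for Tsx, 0.85 for Cttn and 0.79 for Vim. Late spermatid genes gave -1.25 for Cabs1, -1.22 for Fscn3, -1.19 for Prm2 and -0.95 for Akap4. Other cell types gave 2.35 for RT1-Da, 2.01 for Cd74, 1.88 for Lyz2, 1.78 for Scarb1, 1.29 for Cyp11a1, 0.93 for Csf1r, 0.90 for Cyb5a, 0.86 for Hsd11b1 and 0.69 for Myl9. Groups of 2 and 3 arrays are too small for a test of single outlying arrays.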

How the results depend on the processing

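Testin was higher at 8 h and at 4 d than in untreated testes under every alternative run. Its log2 differences were 5.19 (4 d minus untreated), 0.83 (8 h minus untreated) and 4.36 (4 d minus 8 h), and ran over 5.09 to 5.35, 0.72 to 0.99 and 4.25 to 4.47 when any 1 array was left out. The added constant moved them: the 4 d difference was 5.61, 4.83 and 4.32 with pseudocounts of 4, 64 and the largest tried and 4.83 with the values as deposited; that of 4 d minus 8 h was 4.58, 4.15, 3.82 and 4.15; that of 8 h was 0.50 with the largest. Without run 1, a setting added after seeing the data like the other runs, the values were 5.47 at 4 d and 1.10 at 8 h. With the replicate number as a replicate block they were 5.19, 0.84 and 4.35.

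Counts of calls at 4 d, 8 h and 4 d against 8 h were 1956, 13 and 1198; 3494, 38 and 2545 with the replicate block; 4451, 55 and 3098 with the run as a replicate block; 1152, 20 and 520 with equal medians; 899 to 1813, 0 to 15 and 263 to 1507 without 1 array; 211, 0 and 7 without run 1; 516, 3 and 343 without run 2, and 6 at 8 h without run 3. The count of 4 d against 8 h was 397 and 263 without 8 h array 1 or 2, and 417, 712 and 726 without 4 d array 1, 2 or 3. With the replicate and run blocks the 4 d counts were 19 and 18 of the secreted genes, 14 and 15 of the anchoring genes, 6 and 6 of the barrier genes, 14 and 15 of the late spermatid genes, 3 and 3 peritubular and 1 and 1 endothelial, with 7 Leydig genes under the run block; at 8 h the run block gave 1 papain-like, 3 secreted and 1 Sertoli gene. With equal medians they were 1 cystatin, 7 secreted, 3 Sertoli, 4 anchoring, 1 barrier, 1 late spermatid, 0 peritubular and 0 epididymal, and 4 anchoring genes with equal medians of tested probe sets (added after seeing the data). The barrier count was 5 with a minimum on all arrays of a group, the peritubular count 2 with probe sets of 1 gene averaged, and the anchoring count at 8 h 0 without a trend. Without 1 array the 4 d counts were 4 to 7 anchoring, 3 to 7 late spermatid, 6 to 10 leukocyte, 3 to 5 Leydig and 3 to 5 Sertoli genes, and at 8 h 0 to 1 anchoring and 0 to 1 secreted. Of the genes most like Testin in shape 5 remained with the largest pseudocount and 4 with quantile normalization. The causes were not tested. Signals near 100 limit the untreated and 8 h values of Testin, and leaving out 1 of the 2 arrays at 8 h assumes that the other varies like the remaining groups.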
